A study of Mus musculus with 4 samples.

Results

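Secreted matrix proteins, angiogenic factors and matrix-modifying proteins that tumors use to shape their surroundings were examined in alveolar macrophages (AMs), which live in the airspaces of the lung and clear them. The set held 10 genes chosen by name, Fn1, Spp1, Thbs1, Tgfbi, Vegfa, Vegfb, Plau, Plaur, Tnfaip6 and Lox, of 54532 genes in the count table, and each name matched 1 row. All libraries were bulk RNA-seq of AMs from lungs of female wild-type mice, which the methods of the study describe as BALB/c mice aged 8 to 10 weeks. Controls were 2 libraries of tumor-free mice. Tumor libraries, also 2, came from mice that had carried 4T1 cells for 2 weeks. 4T1 is a mouse mammary carcinoma line that spreads to the lung and is grafted into the mammary fat pad in this study. No other genotype or treatment distinguished the groups. The RNA-seq methods say only that AMs were purified. For imaging, AMs of this model are described as CD45+ CD11b- CD11c+ SiglecF+ cells, and whether that gate was used for the RNA was not stated. It was also not stated whether the 2 libraries of a group came from separate mice or from pools, so p-values measure the spread between these libraries, which may be technical.

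Matrix glycoproteins such as fibronectin, osteopontin and thrombospondin-1 connect cells to their surroundings through integrins, CD44 and CD36. Vascular endothelial growth factors act through FLT1, KDR and the neuropilins to drive or tune the growth of blood vessels. Urokinase, held at the cell surface by its receptor, activates plasminogen, and the resulting plasmin degrades fibrin and matrix. In mouse models of metastasis, fibronectin, VEGF signalling and lysyl oxidase are known for their part in preparing the lung before tumor cells arrive.

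Of the 10 genes, 9 had enough reads to be tested and 8 passed an adjusted p of 0.05 in edgeR's quasi-likelihood test with Benjamini-Hochberg adjustment over 14256 genes. In the same test 53.8% of all genes tested were called. Thbs1, Vegfa, Tnfaip6, Tgfbi and Vegfb were higher in tumor libraries (5 genes, where 29.0% of all genes were called higher), and Fn1, Spp1 and Plau were lower (3 genes, where 24.8% were called lower). Plaur was tested and not called, as 46.2% of all genes were, and Lox was too low to test. Thbs1, Vegfa and Tnfaip6 were called with a change of at least 2-fold, 3 of the 9 genes, which 15.9% of all genes were. All 3 were higher (12.9% of all genes) and none was lower (3.01%). Their log2 fold changes had a median of 0.33 over the 9 genes tested, beside 0.02 over all genes tested. That median is the value of Vegfb, which was 0.11 without tumor replicate 1 and 0.72 with scaling on the AM identity genes. Control and tumor libraries did not overlap in CPM (counts scaled to a common library size by TMM) for 8 of the 9 genes, and for 75.1% of all genes tested.

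The scale of the libraries and the other cells they held bear on every value that follows. Total counts ranged from 16167147 to 19205737, and 3 counts or fewer, 0.153 to 0.190 CPM, was taken as the floor. AM identity markers were abundant in every library, but 12 of 14 were lower in tumor libraries. Ear1 was higher (log2 fold change 0.96) and Ear2 was not called. The summed CPM of the 14 was 16427 to 16572 in controls and 12565 to 12707 in tumor libraries. Whether reads of these markers in tumor libraries came only from AMs was not tested. All 12 neutrophil markers were higher (summed CPM 48.0 to 48.2 in controls, 3945 to 3991 in tumor libraries), as were all 6 eosinophil markers (0.854 to 0.950 and 3346 to 3393), the 6 tested of 8 basophil and mast cell markers (0.267 to 0.697 and 55.2 to 63.2) and all 10 hepatocyte markers (0.160 to 0.190 and 681 to 683), which were all at the floor in controls. Of 9 fibroblast markers 5 were tested and 4 were higher, at a low sum (3.55 to 4.32 and 8.84 to 10.3 CPM), and Mfap5 was at 0 throughout. Of 9 platelet and megakaryocyte markers 3 were tested, Itga2b was higher and Pf4 was lower, the sum was 7.95 to 8.74 and 26.9 to 29.6 CPM, and Gp1bb was at 0. The part of these cells in the results was not tested, and in bulk RNA fewer cells of a type and less RNA per cell cannot be told apart.

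To show the sequence from which these genes are transcribed, promoter windows were taken where RefSeq had them. RefSeq promoters on GRCm38.p6, from 250 bases before to 50 after a gene's start, were given for Spp1, Vegfa, Vegfb, Tgfbi, Plaur and Tnfaip6, 6 of the 10 genes. Motifs searched on both strands were TNGCGTG (the core of the aryl hydrocarbon receptor response element), ACGTG (the core of the hypoxia response element) and TGANTCA (the AP-1 site). They do not overlap one another in the windows shown. Of all 32851 RefSeq promoters, 5.07% held TNGCGTG, 19.6% held ACGTG and 7.81% held TGANTCA. Shown are the upstream parts of the windows that held a motif and of Vegfa, the most changed gene with a window, from 5′ to 3′ on the gene's strand, with a motif match in capitals. For Tgfbi and Tnfaip6 the bases that lie inside the gene as the table places it are left out. The Vegfa window is chr17:46032378-46032627 on the minus strand, and those on the plus strand are chr13:56609336-56609522 for Tgfbi, chr2:52037863-52038008 for Tnfaip6 and chr7:24462233-24462482 for Plaur.
Vegfa: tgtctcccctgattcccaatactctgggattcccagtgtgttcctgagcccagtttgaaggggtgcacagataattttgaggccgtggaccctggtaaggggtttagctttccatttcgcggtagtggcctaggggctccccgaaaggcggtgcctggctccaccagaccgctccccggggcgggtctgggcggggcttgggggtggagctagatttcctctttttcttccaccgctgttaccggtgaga
Tgfbi: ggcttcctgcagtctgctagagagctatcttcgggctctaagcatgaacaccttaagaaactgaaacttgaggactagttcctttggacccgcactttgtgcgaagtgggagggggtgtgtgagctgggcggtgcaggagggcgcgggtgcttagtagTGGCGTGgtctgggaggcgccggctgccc
Tnfaip6: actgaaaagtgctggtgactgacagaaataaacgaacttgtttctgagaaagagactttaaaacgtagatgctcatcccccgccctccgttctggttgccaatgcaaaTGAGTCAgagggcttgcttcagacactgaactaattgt
Plaur: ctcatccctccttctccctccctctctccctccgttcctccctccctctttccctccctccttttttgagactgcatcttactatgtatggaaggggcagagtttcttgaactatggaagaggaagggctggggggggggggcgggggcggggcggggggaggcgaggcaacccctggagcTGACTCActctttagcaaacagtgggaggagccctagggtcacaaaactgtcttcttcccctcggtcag

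The Tgfbi window held TGGCGTG at position −92 from the start, the Tnfaip6 window held TGAGTCA at −142 and the Plaur window held TGACTCA at −69. None of the 3 motifs was in the first windows of Vegfa, Spp1 and Vegfb, which says only that these letters are not there. Of these windows, TNGCGTG was found in that of Tgfbi alone, a gene that was higher. TGANTCA was found in a gene that was higher (Tnfaip6) and in the 1 that was not called (Plaur).

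**Figure D1:**
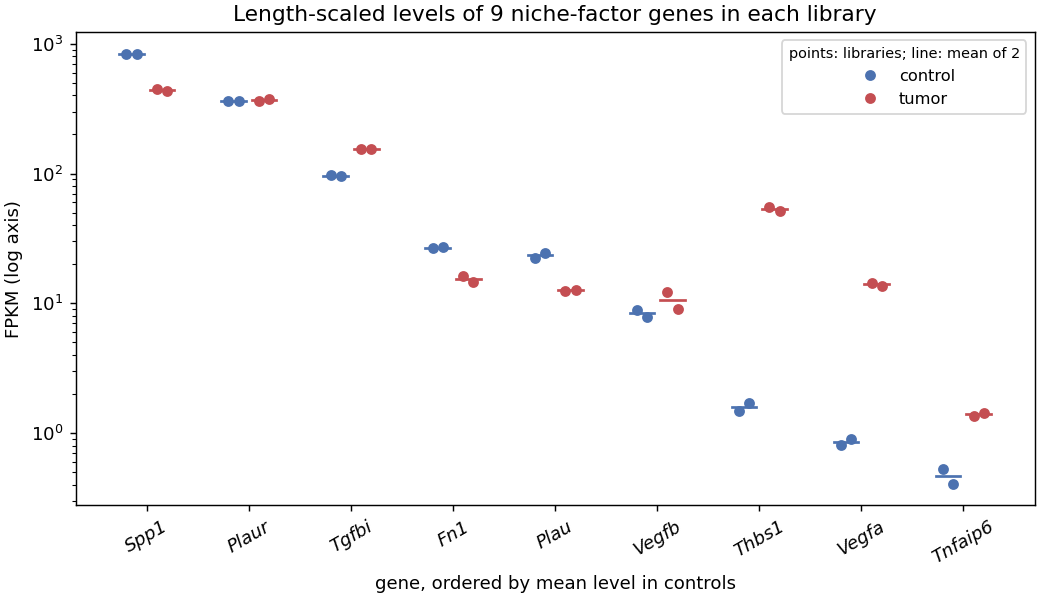
FPKM (log axis) of the 9 tested genes in each library, with genes in order of their control level. Points are libraries and lines are the means of 2. Thbs1 went from 1.58 to 53.0 and Vegfa from 0.856 to 14.0, whereas the points of Plaur in the 2 groups overlap.

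Of the 4 matrix glycoproteins Spp1 and Fn1 fell, whereas Thbs1 and Tgfbi rose. Osteopontin (Spp1, ENSMUSG00000029304, chr5:104435118-104441050, plus strand, GRCm38) is a secreted phosphoprotein that binds integrins and CD44. It stood at 1366 and 1380 CPM in the control libraries and at 742 and 715 CPM in the tumor libraries. Both tumor libraries lay far below both controls. Spp1 was lower by 1.89-fold (log2 fold change −0.91 ± 0.0214 SE, edgeR adjusted p = 9.96e-24). On a length-corrected scale (FPKM, CPM per kilobase of gene length) it had the highest mean of the 10 genes in both groups, at 832.9 ± 6.04 in controls and 442 ± 11.7 in tumor libraries (SD, n = 2 each).

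Fibronectin (Fn1, ENSMUSG00000026193, chr1:71585520-71653200, minus strand) forms the fibrils on which other matrix proteins assemble. Its levels were 313 and 315 CPM in controls and 189 and 172 CPM in tumor libraries, again without overlap. Fn1 was 1.74-fold lower (log2 fold change −0.80 ± 0.0360, edgeR adjusted p = 3.90e-17). Fn1 is also a product of hepatocytes, whose markers were higher in the tumor libraries. The ratio of Spp1 to Fn1 in FPKM was 30.9 and 31.0 in controls and 27.9 and 29.5 in tumor libraries.

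Thrombospondin-1 (Thbs1, ENSMUSG00000040152, chr2:118111876-118127133, plus strand) binds CD36 and CD47, restrains vessel growth and can activate latent TGF-beta. It was read 168 and 162 times in the control libraries and 5764 and 6100 times in the tumor libraries, that is 8.96 and 10.3 CPM against 333 and 311 CPM. No other tested gene of the set had as large a fold change. Thbs1 was 33.6-fold higher (95% interval 30.9 to 36.6, log2 fold change 5.07 ± 0.0597, edgeR adjusted p = 1.06e-30), rank 481 of the 14256 tested genes when ordered from the highest fold change. In FPKM it rose from 1.58 ± 0.152 to 53.0 ± 2.56 (SD, n = 2 each). The FPKM ratio of Thbs1 to Fn1 was 0.0551 and 0.0626 in controls and 3.39 and 3.48 in tumor libraries, so the order of the pair was exchanged. Thbs1 is also stored in platelets. Of the 9 platelet and megakaryocyte markers 3 were tested. Itga2b was higher (53 and 43 counts in controls, 403 and 532 in tumor libraries), Pf4 was lower (55 and 48, then 14 and 9) and Gp1ba was not called, while Ppbp had at most 1 count in any library. Their summed level was 7.95 to 8.74 CPM in controls and 26.9 to 29.6 CPM in tumor libraries, and their part in the result was not tested.

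TGF-beta-induced protein (Tgfbi, ENSMUSG00000035493, chr13:56609523-56639562, plus strand) is a matrix protein with fasciclin domains that binds integrins and collagens, and its promoter window held the TNGCGTG core shown with the sequences. It stood at 365 and 359 CPM in controls and at 588 and 585 CPM in tumor libraries. The spread within each group was small against the gap between the groups. Tgfbi was 1.62-fold higher (log2 fold change 0.70 ± 0.0252, edgeR adjusted p = 2.99e-19), and its FPKM was 96.0 ± 1.09 in controls and 155 ± 0.497 in tumor libraries (SD, n = 2 each).

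The 2 VEGF ligands differed in how much they changed. VEGF-A (Vegfa, ENSMUSG00000023951, chr17:46016993-46032369, minus strand) is the main vessel-growth ligand of KDR and FLT1, and its promoter window held none of the motifs searched. It was read 65 and 61 times in controls and 1058 and 1151 times in tumor libraries, at 3.47 and 3.87 CPM against 61.1 and 58.7 CPM. The groups were well apart. Vegfa was 16.4-fold higher (95% interval 14.0 to 19.1, log2 fold change 4.03 ± 0.108, edgeR adjusted p = 2.40e-22), rank 624 of the tested genes. VEGF-B (Vegfb, ENSMUSG00000024962, chr19:6982473-6987651, minus strand) binds FLT1 and is linked to vessel survival and fatty acid uptake. It was at 14.2 and 12.7 CPM in controls and 19.5 and 14.6 CPM in tumor libraries, so tumor replicate 2 lay just above control replicate 1. Vegfb was called higher by a small margin (log2 fold change 0.33 ± 0.129, 95% interval 0.07 to 0.60, edgeR adjusted p = 0.0327). That call was lost in DESeq2 (adjusted p = 0.146) and in limma-voom (0.0650). It was also lost in edgeR without control replicate 2 (log2 fold change 0.24, adjusted p = 0.196) and without tumor replicate 1 (0.11, adjusted p = 0.540), and over all 14 alternative fits the adjusted p of Vegfb ranged from 3.02e-05 to 0.540. In FPKM the ratio of Vegfa to Vegfb was 0.0915 and 0.114 in controls and 1.18 and 1.51 in tumor libraries. Vegfb was thus the more abundant ligand in both controls and Vegfa in both tumor libraries.

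The urokinase pair was split. Urokinase (Plau, ENSMUSG00000021822, chr14:20836660-20843385, plus strand), the secreted protease that activates plasminogen, was at 53.3 and 57.3 CPM in controls and at 29.4 and 30.2 CPM in tumor libraries. Plau was 1.85-fold lower (log2 fold change −0.89 ± 0.0726, edgeR adjusted p = 2.54e-11), with no overlap between groups. Its receptor (Plaur, ENSMUSG00000046223, chr7:24462484-24475968, plus strand), which holds urokinase at the cell surface, was at 946 and 944 CPM in controls and 943 and 975 CPM in tumor libraries. The groups overlapped. The log2 fold change of Plaur was 0.02 ± 0.0213 (95% interval −0.02 to 0.07, edgeR adjusted p = 0.422), which corresponds to a fold between 0.985 and 1.05. With total counts as library sizes, Plaur passed the threshold at a log2 fold change of 0.09 (edgeR adjusted p = 9.33e-04), and with scaling on the AM identity genes at 0.41. Over all 14 alternative fits the adjusted p of Plaur ranged from 1.94e-14 to 0.994. The ratio of Plaur to Plau in FPKM was 16.1 and 14.9 in controls and 29.0 and 29.2 in tumor libraries.

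TSG6 and lysyl oxidase were the least abundant of the set. TSG6 (Tnfaip6, ENSMUSG00000053475, chr2:52038009-52056686, plus strand) is a hyaluronan-binding protein that transfers heavy chains of inter-alpha-inhibitor onto hyaluronan. It was read 17 and 11 times in controls and 40 and 48 times in tumor libraries, at 0.907 and 0.697 CPM against 2.31 and 2.45 CPM. Both tumor libraries were above both controls, on few reads. Tnfaip6 was 2.93-fold higher with a wide 95% interval of 1.76 to 4.85 (log2 fold change 1.55 ± 0.355, edgeR adjusted p = 0.000533). Lysyl oxidase (Lox, ENSMUSG00000024529, on chromosome 18), the enzyme that cross-links collagen and elastin, had 2 and 0 counts in controls and 2 and 12 counts in tumor libraries. Only tumor replicate 2 exceeded the floor, and a difference in Lox was not detectable at this depth.

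Ordered by FPKM, the controls ran Spp1, Plaur, Tgfbi, Fn1, Plau, Vegfb, Thbs1, Vegfa, Tnfaip6 and Lox. The tumor libraries ran Spp1, Plaur, Tgfbi, Thbs1, Fn1, Vegfa, Plau, Vegfb, Tnfaip6 and Lox. Thbs1 and Vegfa were the genes that climbed. Neighbours did not overlap between libraries, but several differed little, with mean FPKM ratios in tumor libraries of 1.10 for Fn1 over Vegfa, 1.11 for Vegfa over Plau, 1.19 for Plau over Vegfb and 1.21 for Spp1 over Plaur, and of 1.15 for Fn1 over Plau in controls. With the longest annotated transcript as length, Vegfb (13.3) stood above Plau (12.7) in tumor libraries, and Spp1 (483) and Plaur (477) were nearly level there. The summed CPM of the 10 genes was 3070 and 3083 in controls and 2907 and 2864 in tumor libraries. Within that sum Spp1 fell from 44.5% and 44.7% to 25.5% and 25.0%, Thbs1 rose from 0.292% and 0.333% to 11.5% and 10.9%, and Tgfbi rose from 11.9% and 11.6% to 20.2% and 20.4%.

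**Figure D2:**
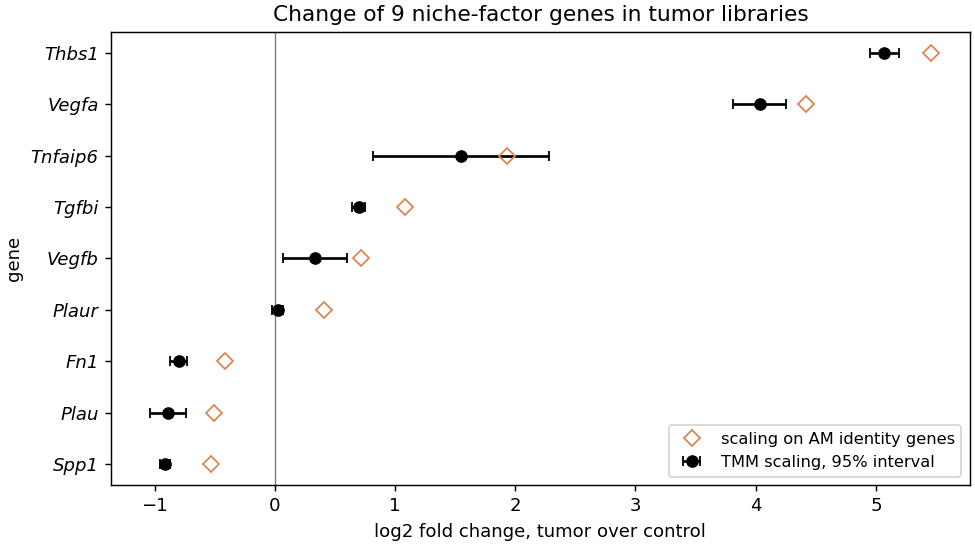
Log2 fold change, tumor over control, of the 9 tested genes. Filled points with bars are edgeR estimates with their 95% intervals and open diamonds are estimates after scaling on the AM identity genes. Thbs1 (5.07) and Vegfa (4.03) stand apart from the others, Spp1, Plau and Fn1 lie below 0 under both scalings, and the TMM interval of Plaur includes 0.

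Scaling mattered for the smaller changes. When libraries were scaled on the AM identity genes instead of by TMM, the median log2 fold change of all genes moved by 0.38 and 89.4% of all calls were higher in tumor libraries, against 53.9%. Fn1 (−0.42), Plau (−0.50) and Spp1 (−0.53) were still called lower under that scaling, and Thbs1 (5.46), Vegfa (4.42), Tnfaip6 (1.93) and Tgfbi (1.08) were still called higher.

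Genes that work with the set were counted from lists of receptors, regulators and related factors, 208 genes without the members, of which 148 were tested. Of these, 66 were higher and 42 lower in tumor libraries, where 29.0% of all genes were called higher and 24.8% lower. That made 108 calls in all, where 53.8% of all genes were called. The same shares of all genes are the background for each list below. With at least 10 counts in every library 70 partner genes were called, 32 of them higher, and 51.1% of the calls over all genes were higher. With scaling on the AM identity genes 96 of 118 calls of partner genes were higher. Partner genes had a median log2 fold change of 0.33, beside 0.02 over all genes tested.

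**Figure D3:**
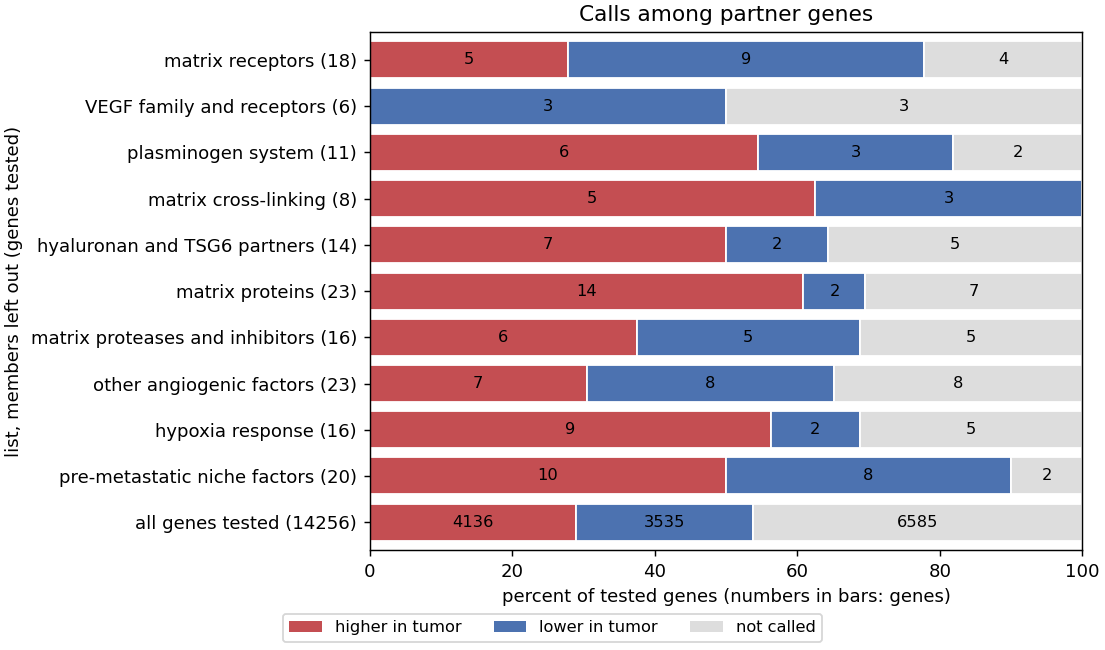
Percent of the tested genes of each list that were called higher, called lower or not called in tumor libraries, with the number of genes in each bar and all genes tested at the bottom. In the VEGF family and receptor list 3 genes were lower and none was higher, whereas in the matrix protein list 14 of 23 were higher. Calls are under TMM scaling, and with scaling on the AM identity genes these lists had 2 lower and 19 higher.

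Of 21 receptors for the matrix glycoproteins 18 were tested, 9 were lower and 5 higher (median log2 fold change −0.09), where 24.8% of all genes were lower and 29.0% higher. This split depended on the scaling, with 9 lower and 9 higher with total counts as library sizes and 5 lower and 11 higher with scaling on the AM identity genes. Itga5, the fibronectin-binding alpha-5 subunit, was lower (−1.98 ± 0.0314, mean FPKM 98.3 in controls and 25.0 in tumor libraries), as was Cd44 (−0.89 ± 0.0160, 540.5 and 291). The low-level Itga9 was also lower (−2.08 ± 0.612, 13 and 19 counts in controls, 3 and 5 in tumor libraries), a call lost without control replicate 2 (−1.67). Itgb3, which pairs with Itgav into a receptor for osteopontin and fibronectin, was read 13 and 11 times in controls and 1078 and 1116 times in tumor libraries and was higher (6.41 ± 0.151). Its partner Itgav did not pass the test (0.14 ± 0.0793), and neither did Itgb1 (0.00 ± 0.0249, mean FPKM 145 in both groups), but both were called higher with total counts as library sizes (0.21 and 0.067) and with scaling on the AM identity genes (0.53 and 0.39). Itga4, a fibronectin receptor subunit of leukocytes, was higher (1.03 ± 0.0362). The thrombospondin receptors Cd36 (−0.45 ± 0.0348) and Cd47 (−0.18 ± 0.0240), the uptake receptor Lrp1 (−0.64 ± 0.0160) and Itgb5 (−0.23 ± 0.0331) were lower, although with scaling on the AM identity genes Cd47 (0.20) and Itgb5 (0.15) turned higher and Cd36 (−0.07) was no longer called.

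In the VEGF family and its receptors, no gene beside the 2 ligands of the set was called higher. Of 8 genes 6 were tested, 3 were lower and 3 were not called (median −0.24). Flt1, the receptor shared by VEGF-A and VEGF-B, was lower (−0.74 ± 0.0413), with 3059 and 2705 counts in controls and 1771 and 1933 in tumor libraries. The co-receptors Nrp1 (−0.46 ± 0.0476) and Nrp2 (−0.75 ± 0.0369) were lower too, Nrp1 not under AM identity scaling (−0.079, no longer called). Kdr, the main signalling receptor on endothelium, had 12 to 23 counts per library and was not called (0.37 ± 0.416), and the ligand Pgf was not called (−0.02 ± 0.473). Vegfc had at most 2 counts in any library.

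Around urokinase, the plasminogen list had 14 genes beside Plau and Plaur, of which 11 were tested, 6 were higher and 3 lower (median 1.15), or 8 and 2 under AM identity scaling. The urokinase inhibitor Serpinb2 (PAI-2) was higher (7.17 ± 0.130), read 19 and 8 times in controls and 2042 and 2137 times in tumor libraries. Serpine2 (0 and 2 counts in controls, 33 and 21 in tumor libraries) was at least 5.63-fold higher, against a floor of 3 counts per library. Plg, plasminogen itself and a liver product, had 0 counts in both controls and 197 and 213 in tumor libraries, at least 57.1-fold higher, beside the hepatocyte markers that were at the floor in controls. The plasminogen docking protein Anxa2 was lower (−0.38 ± 0.0199, and 0.01 under AM identity scaling), its partner S100a10 was not called (−0.06 ± 0.0334), but was lower without control replicate 1 (−0.10) or tumor replicate 2 (−0.094) and higher under AM identity scaling (0.32), and Plat had 16 and 7 counts in controls and 7 and 1 in tumor libraries and was not tested.

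Among matrix cross-linking genes, 8 of 13 were tested, 5 were higher and 3 lower (median 1.01). With scaling on the AM identity genes all 8 were higher. The lysyl oxidase relatives had few reads. Loxl4 was higher (1.62 ± 0.472) on 7 and 8 against 25 and 25 counts, a call lost without control replicate 1 (1.40), and Loxl1, Loxl2 and Loxl3 were not tested, with 8 counts at most. The abundant enzymes, Tgm2 (−0.31 ± 0.0223), Plod3 (−0.29 ± 0.0266) and Plod1 (−0.13 ± 0.0433), were lower, but all 3 turned higher with scaling on the AM identity genes (0.08, 0.10 and 0.26), and Plod1 was not called with total counts as library sizes (−0.059) or without control replicate 2 (−0.12). Tgm1, a transglutaminase known from skin, was higher (1.29 ± 0.135).

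Around TSG6, 14 of 18 hyaluronan and TSG6 partner genes were tested, 7 were higher and 2 lower (median 0.28). The inter-alpha-inhibitor chains that TSG6 acts on, which are made in liver, were at the floor in controls. Ambp had 1 and 0 counts in controls and 263 and 273 in tumor libraries (at least 73.2-fold higher), Itih1 had 1 and 1 against 70 and 79 (at least 21.2-fold) and Itih2 had 0 and 1 against 93 and 107 (at least 28.3-fold). Hepatocyte markers moved the same way, from 0.160 to 0.190 summed CPM in controls to 681 to 683 in tumor libraries, and their part in this was not tested. The hyaluronan synthase Has1 was lower (−2.15 ± 0.627) on 19 and 11 against 3 and 4 counts, a call lost in DESeq2 (−2.20) and without control replicate 1 (−1.85), Has3 was not called (−0.45 ± 0.407), and Has2 and Ptx3, a binding partner of TSG6, had 0 counts in every library. The hyaluronidases Tmem2 (0.37 ± 0.0888) and Hyal2 (−0.37 ± 0.160) were higher and not called, respectively.

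**Figure D4:**
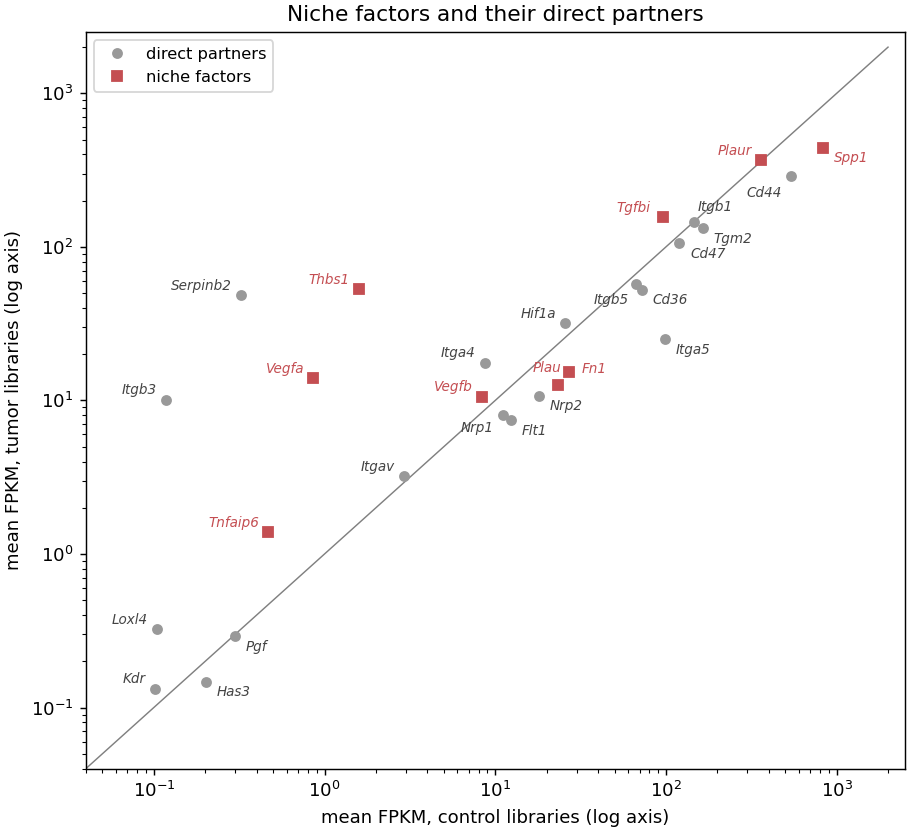
Mean FPKM in control against tumor libraries (log axes) for the 9 tested genes of the set (squares) and 19 tested direct partners with a mean above 0.05 FPKM in both groups (circles), with the line of equal level. Serpinb2 and Itgb3 lie with Thbs1 and Vegfa far above the line, and Itga5, Cd44 and Spp1 lie below it.

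Among other matrix proteins, 23 of 41 genes were tested, 14 were higher and 2 lower (median 1.84), or 19 and 0 under AM identity scaling. The most abundant, Emilin2, a microfibril protein, was higher (1.12 ± 0.0278, mean FPKM 43.8 in controls and 95.4 in tumor libraries). Its relative Emilin1 was lower (−0.25 ± 0.0490, 0.14 under AM identity scaling). The next most abundant by mean FPKM over both groups, Ecm1 (−0.09 ± 0.120) and Lamc1 (−0.17 ± 0.100), were not called. However, Lamc1 was lower without tumor replicate 2 (−0.30) and Ecm1 was higher under AM identity scaling (0.29). In tumor libraries alone Vtn, with 0 counts in both controls, had a mean FPKM of 5.25, beside 5.14 for Ecm1. The list shares 5 genes with the fibroblast markers, Col1a1, Col1a2, Col3a1, Dcn and Lum, and 4 of its 14 higher genes are among these. Of 33 matrix proteases and inhibitors 16 were tested, 6 were higher and 5 lower (median 0.20), or 11 and 3 under AM identity scaling. Adam8, a leukocyte sheddase, was higher (7.13 ± 0.0536), with 92 and 67 counts in controls and 10986 and 12864 in tumor libraries, whereas Mmp19 (−1.74 ± 0.0271), Adam17 (−0.67 ± 0.0280) and Adam10 (−0.19 ± 0.0331) were lower, Adam10 turning higher (0.19) with scaling on the AM identity genes.

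Beside Vegfa, angiogenic factors and genes of the hypoxia response were examined. Of 30 other angiogenic genes 23 were tested, 7 were higher and 8 lower (median −0.03), or 10 and 4 under AM identity scaling. The 7 were 30.4% of those tested and the 8 were 34.8%, beside 29.0% and 24.8% of all genes. Hif1a, the oxygen-regulated transcription factor that acts on Vegfa, was higher by a small factor (0.32 ± 0.0360), Angptl4 was lower (−0.41 ± 0.0548, not called under AM identity scaling at −0.03), Cxcl2 was lower (−0.09 ± 0.0151, 0.29 under that scaling and not called with total counts at −0.026) and Grn was not called (−0.03 ± 0.0222), but was lower without control replicate 2 (−0.066) and higher under AM identity scaling (0.35). Of 18 hypoxia-response genes 16 were tested, 9 were higher and 2 lower (median 0.51), or 13 and 0 under AM identity scaling. Aldoa was on the list too but was left out, since its name matched 2 rows. The glycolytic enzymes Pgk1 (0.53 ± 0.0392) and Eno1 (0.56 ± 0.0366) were higher, Ldha was lower (−0.13 ± 0.0272, 0.26 under AM identity scaling and not called with total counts at −0.061) and Bnip3l was not called (0.04 ± 0.0297), but was higher with total counts (0.11) and AM identity scaling (0.43).

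Of 24 genes known from the pre-metastatic niche 20 were tested, 10 were higher and 8 lower (median 1.01). Some of them, such as Flt1 and Mmp9, were also counted in the lists above. The inflammatory cytokines Tnf (−2.24 ± 0.0205), Cxcl1 (−0.96 ± 0.0216) and Il1b (−0.90 ± 0.0189) were lower, as were Spp1, Fn1 and Plau. S100a9, a calcium-binding protein of neutrophils that is itself among the neutrophil markers, rose from 12 and 11 counts to 19073 and 20990 (10.66 ± 0.0610). All values after ± in the accounts of the partner genes are SE of the log2 fold change from edgeR's quasi-likelihood fit.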

How the data were processed

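Libraries were made from total RNA of AMs that the authors had purified. The authors aligned paired-end HiSeq reads with HISAT2 2.0.5 and counted them with featureCounts. The deposited values are raw counts per gene with gene lengths and coordinates. DESeq2 is named in the submitters' processing notes, with no role given. Genome build, annotation, strandedness and the handling of multiply mapped reads are not given in the sources used here. Of 54532 gene IDs, 54409 were in GENCODE M21 (GRCm38), 98.33% of them with the same coordinates, and positions are therefore stated on GRCm38.

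Groups came from the titles in the labels. The group difference was fitted with edgeR 4.0.16 in R 4.3.3 (quasi-likelihood test, TMM factors 0.977 to 1.02, filterByExpr with a minimum count of 10, Benjamini-Hochberg adjustment, threshold 0.05), with the group as the single term. 14256 genes were tested and 40276 were not. The test was first run on simulated data. SE was obtained from the log2 fold change and the F statistic, as their ratio after taking the root of F, SD is over 2 libraries, and intervals are 95%. FPKM was computed from CPM and the table's gene length. With 2 against 2 libraries an exact permutation test cannot go below p = 0.333. Where both controls were at or under the floor of 3 counts, the fold is a bound, the lower tumor CPM over the higher control floor. Library pairs differed beyond sampling noise (chi-square per gene 1.86 in controls and 2.34 in tumor libraries), so none was counted once. The coefficient of variation between libraries, from the common dispersion, was 0.0303. These values cannot tell separate mice from libraries of the same pool.

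The members and gene lists were chosen with earlier results of these data known. Named were all 10 members, the 4 genes of each partner list with the highest mean FPKM and 34 direct partners, whatever their change, except that some genes are not reported here. Alternatives were other scalings, filters, thresholds and tests (DESeq2 1.42.0, limma 3.58.1), a replicate block and leaving out each library.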

Additional observations from a re-analysis of the deposited data

How the results depend on the processing

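Between 7 and 9 members were called under the 14 alternative fits and at an adjusted p under 0.01, and 3 (3 higher, 0 lower) with a log2 fold change of at least 1. With that threshold, 65 partner genes and 2268 genes were called, 1839 of these genes higher. With at least 10 counts in every library, 70 partner genes were called, 32 of them higher. With scaling on the AM identity genes 8777 genes were called higher. The replicate numbers did not pair the libraries (correlation of the deviations of same-numbered libraries 0.0278 over 12279 genes), and with the replicate block 7446 genes, 106 partner genes and 8 members were called, against 7671, 108 and 8.

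Fn1, Spp1, Thbs1, Vegfa, Tgfbi, Plau and Tnfaip6 kept their direction and their call in all 14 alternative fits. Vegfb kept its direction in all 14 and lost its call in 4. The sign of Plaur turned without control replicate 2 and without tumor replicate 2, at −0.00719 at the lowest (range over left-out libraries −0.00719 to 0.038). Turned positive with scaling on the AM identity genes were Itgb5 (0.15), Cd47 (0.20), Pgf (0.36), Anxa2 (0.0058), S100a10 (0.32), Plod1 (0.26), Plod3 (0.10), Tgm2 (0.080), Hyal2 (0.014), Lamc1 (0.21), Ecm1 (0.29), Emilin1 (0.14), Adam10 (0.19), Cxcl2 (0.29), Grn (0.35) and Ldha (0.26). With total counts as library sizes Pgf (0.050), S100a10 (0.00472) and Grn (0.033) turned positive. Itgb1 turned negative with DESeq2 size factors (−0.00382), with no filter (−0.016), in DESeq2 (−0.015), in limma-voom (−0.00231) and without the 20 genes with the highest counts (−0.000301), and ranged from −0.045 to 0.018 over left-out libraries, as Pgf did from −0.74 to 0.42. The shift of the scaling itself, 0.38, exceeds the sizes of the changes that turned under AM identity scaling. For the other reversals the cause was not tested. A fit without 1 library assumes that the lone library of its group varies like the other group. The planned search of protein sequences was not run. Depth limits Lox, Tnfaip6 and the LOXL genes.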
